A study of Mus musculus with 12 samples.

Results

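The genes of mouse chromosome 4, apart from Cdkn2a, Cdkn2b and Mtap, were compared between tumours grown from a PD-1 antibody resistant lung adenocarcinoma line and tumours of its parental line. The array's probe sets named 1087 genes on this chromosome, and 1084 were left without those 3. A gene was taken as a member where the probe set with its highest mean exceeded a log2 level of 3.32, the 25th percentile of all values, on at least 3 of the 12 arrays. This kept 936 members of 15493 genes measured in all and left 148 genes below the limit. The chromosome was chosen by its resistant minus parental differences, which were mostly above 0 under both antibodies. Those differences are therefore given below as a description without a test, and the counts of genes past a limit in them support nothing. Just outside the limit lay Padi3 with a third-highest array of 3.30 and Cfap206 with 3.31, and just inside it Frem1 and Rspo1 with 3.33 each.

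All tumours grew under the skin of the right flank of female 129sv/ev mice from 344SQ, a mouse lung adenocarcinoma line used either as its parental form or as an anti-PD-1 resistant derivative. Mice had 10 mg/kg of control IgG or of anti-PD-1, a blocker of an inhibitory T cell receptor, on day 4 and again on day 7 of tumour growth, and tumours were taken on day 11. The 4 groups are parental with control IgG, parental with anti-PD-1, resistant with control IgG and resistant with anti-PD-1, each with 3 arrays out of 5 mice. The labels do not tie arrays to mice, so p-values measure only how these arrays vary, which may be partly technical. Precision is bounded by 3 arrays a group. The resistant line is a single derivative, and the host tissue around the tumour cells was measured with them.

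A cell with an extra copy of a chromosome carries one more template of each gene on it, and transcript levels of many of those genes tend to follow the copy number, each by a small amount. Mouse chromosome 4 holds the Ink4 locus, with Cdkn2a and Cdkn2b, and a further inhibitor of the same family, Cdkn2c. It also carries the type I interferon cluster, a block of tumour necrosis factor receptor genes, the complement C1q genes and many genes of replication, splicing and mitochondrial function. Expression arrays measure RNA and not DNA, and copy number was not analysed here.

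The start regions of 4 members are shown: a pair of neighbours that share one start region, a checkpoint gene of the cell cycle list, and Ambp, the member with the highest smaller difference under the antibodies. Each is the RefSeq window (GRCm38.p6) from 250 bases before to 50 after the start, read 5′ to 3′ on the gene's strand. Capitals mark the letters searched as a match to E2F factors, which drive genes of DNA replication. The letters were TTTCCCGC, TTTCGCGC, TTTGCCGC or TTTGGCGC on either strand. The windows lie at chr4:108579287-108579586 on the minus strand for Prpf38a, chr4:108579204-108579503 on the plus strand for Orc1, chr4:126556730-126557029 on the plus strand for Clspn, and chr4:63154123-63154422 on the minus strand for Ambp.
Prpf38a: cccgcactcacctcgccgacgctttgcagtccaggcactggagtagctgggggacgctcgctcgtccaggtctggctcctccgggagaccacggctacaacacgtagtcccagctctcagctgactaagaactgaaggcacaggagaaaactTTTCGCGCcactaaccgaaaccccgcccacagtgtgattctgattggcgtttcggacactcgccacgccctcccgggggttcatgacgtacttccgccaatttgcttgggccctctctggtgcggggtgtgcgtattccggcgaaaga
Orc1: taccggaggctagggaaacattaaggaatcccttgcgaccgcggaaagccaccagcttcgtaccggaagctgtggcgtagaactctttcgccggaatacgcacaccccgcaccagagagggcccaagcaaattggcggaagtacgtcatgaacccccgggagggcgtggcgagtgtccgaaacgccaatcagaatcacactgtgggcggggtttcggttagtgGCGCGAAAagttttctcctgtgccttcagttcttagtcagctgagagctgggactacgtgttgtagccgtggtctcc
Clspn: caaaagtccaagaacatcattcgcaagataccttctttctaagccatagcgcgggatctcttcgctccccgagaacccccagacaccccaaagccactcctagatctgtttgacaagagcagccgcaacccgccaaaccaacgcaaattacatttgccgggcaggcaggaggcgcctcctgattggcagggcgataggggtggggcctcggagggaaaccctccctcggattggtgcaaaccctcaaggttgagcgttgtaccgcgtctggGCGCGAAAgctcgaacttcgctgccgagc
Ambp: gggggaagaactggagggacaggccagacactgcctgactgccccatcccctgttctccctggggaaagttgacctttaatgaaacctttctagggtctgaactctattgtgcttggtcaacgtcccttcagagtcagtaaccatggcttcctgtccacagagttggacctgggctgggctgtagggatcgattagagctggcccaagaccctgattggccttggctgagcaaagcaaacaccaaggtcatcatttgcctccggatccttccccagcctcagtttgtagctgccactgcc
The windows of Prpf38a, a splicing factor, and Orc1, a subunit of the origin recognition complex, overlap by 217 bases on opposite strands, so the marked letters are the same site in both. Clspn encodes claspin, an adaptor of the replication checkpoint, and holds the match close to its start. The Ambp window holds no match and 3 CG pairs against 25 in that of Prpf38a.

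Of the 936 members, 788 had a window in the RefSeq table and 148 did not. A match stood in 29 of 788 member windows (3.68%), against 626 of 27025 genes in the whole table (2.32%) and 38 of 1632 on chromosome 4 (2.33%). It stood in 3 of 26 windows of the cell cycle members, those of Clspn, Orc1 and E2f2. Among members whose arrays were higher in the resistant line without overlap under both antibodies it stood in 13 of 180 (7.22%), and among those lower in this way in 0 of 34. The member windows had a median observed over expected CpG ratio of 0.72, against 0.39 in the table. The table also lists genes that were not measured, which limits the comparison of match shares as well as that of CpG ratios. A match is a description of letters and shows no binding.

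Values are log2 levels as deposited. Array lower quartiles ran from 3.27 to 3.36 and correlations between arrays from 0.959 to 0.997. Epithelial tumour markers were measured on all arrays (6 of 6 genes, none at the limit), with a log2 summed level of 14.60 to 14.85 in parental and 14.41 to 14.49 in resistant tumours under IgG, without overlap, and of 14.44 to 14.81 and 14.49 to 14.54 under anti-PD-1. The part of this difference in the members' values was not tested. Markers of host tissue varied between arrays within groups. Skeletal muscle ran from 10.38 to 14.44 in parental tumours under IgG and from 9.84 to 13.08 in resistant tumours under anti-PD-1. The 3′ minus 5′ gap of the Gapdh control probe sets, a sign of RNA quality, moved with the line, at 0.263 ± 0.096 in parental and 0.035 ± 0.052 in resistant tumours (SD, n = 6 each). The gap of the actin control moved likewise, at 0.753 ± 0.105 and 0.483 ± 0.080 (SD, n = 6 each), without overlap. Their part in the differences between the lines was not tested. The 3 genes left out had line differences of -3.73 under IgG and -3.47 under anti-PD-1 for Cdkn2a, -3.34 and -2.75 for Cdkn2b, and 1.33 and 2.02 for Mtap.

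The chromosome 4 members were, as a whole, slightly higher in resistant than in parental tumours. Their median difference was 0.15 under IgG and 0.14 under anti-PD-1 on the log2 scale, against 0.06 and 0.07 for 13974 genes on the other autosomes. The excess over the other autosomes was 0.09 under IgG and 0.07 under anti-PD-1, or 6.68% and 5.21% in level. Under IgG 697 members (74.5%) lay above 0, and under anti-PD-1 628 (67.1%), against 60.9% and 59.3% of all genes. The interquartile range ran from 0.0 to 0.30 for the members under IgG and from -0.13 to 0.22 on the other autosomes. Both differences were positive in 552 members, both negative in 163, and of mixed sign or 0 in 221. The comparisons of the lines share no array, and across genes, which are not independent replicates, the members' differences correlated with Pearson's r of 0.61, against 0.57 on the other autosomes.

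**Figure D1:**
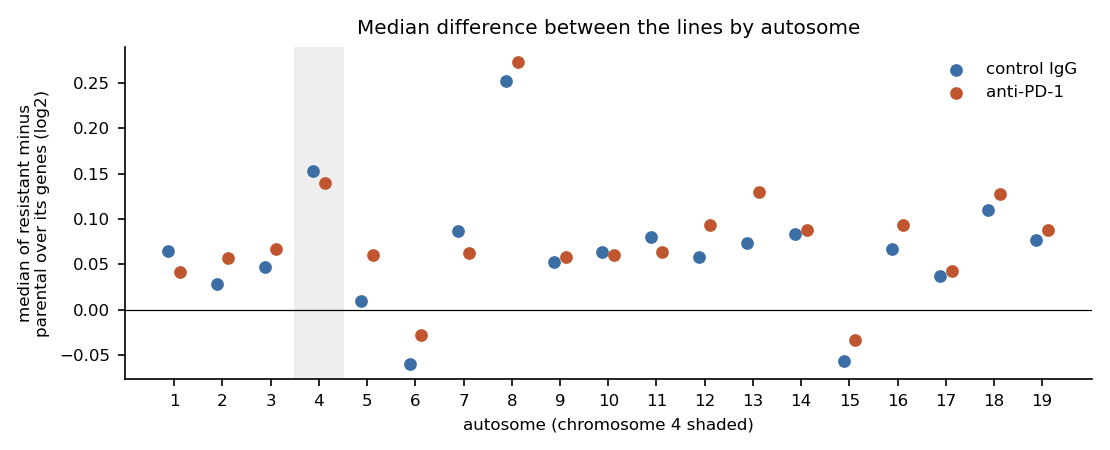
Median resistant minus parental log2 difference over the measured genes of each autosome, under control IgG and under anti-PD-1. Chromosome 4, shaded, stands at 0.153 and 0.14, below chromosome 8 at 0.252 and 0.273 and above the other 17.

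Among the 19 autosomes chromosome 4 had the second-highest median under both antibodies, after chromosome 8. The medians next to it were 0.11 for chromosome 18 under IgG and 0.13 for chromosome 13 under anti-PD-1, so its place under anti-PD-1 rests on 0.01. The lowest were chromosome 6 at -0.06 and -0.03 and chromosome 15 at -0.06 and -0.03. No test was made of this order, because it chose the chromosome.

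In each array the median deviation of the members from their means over 12 arrays was set against that of the other autosomes. It was -0.042, -0.047 and -0.050 in parental tumours under IgG, and -0.050, -0.025 and -0.037 under anti-PD-1. In resistant tumours it was 0.048, 0.045 and 0.049 under IgG and 0.039, 0.051 and 0.039 under anti-PD-1. The lines did not overlap in any array. Within a line the antibody groups overlapped, with means of -0.046 and -0.038 in parental and 0.048 and 0.043 in resistant tumours. Lines that did not overlap in this measure were seen for 7 of 19 autosomes, 4 with the resistant line higher and 3 with it lower. In bulk tumours fewer cells of a type and less RNA per cell cannot be told apart.

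**Figure D2:**
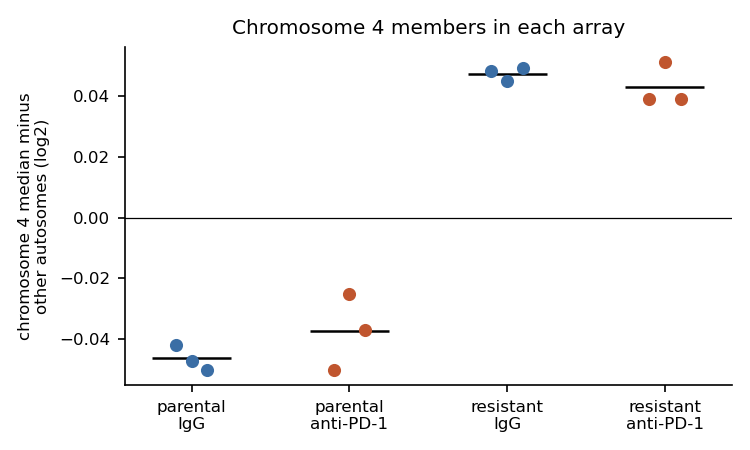
Median log2 deviation of the 936 members in each array minus that of genes on the other autosomes, 3 arrays per group, with bars at group means. The 6 parental arrays lie between -0.050 and -0.025 and the 6 resistant arrays between 0.039 and 0.051.

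The positive medians were spread along the chromosome, while the excess over the other autosomes was not seen everywhere. In gene order, 934 members were placed, and 2, Cd99 and Dhrsx, were not. Cut into 10 runs of 93 or 94 members, every run had a median above 0 under both antibodies. The highest runs were the fourth, from Dmac1 to Tceanc2, at 0.21 under IgG and 0.23 under anti-PD-1, and the fifth, from Lrrc42 to Dph2, at 0.21 and 0.26. The lowest was the last run, from Tmem201 to Samd11, at 0.10 and 0.04. Under anti-PD-1 this run and the eighth, at 0.057, lay below the 0.067 of the other autosomes, and under IgG no run lay below their 0.06. In the end run the array values of the lines overlapped, as they did in the second and the eighth, and in the other 7 runs they did not.

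Medians over 25 consecutive members gave a finer view. All 910 such windows lay above 0 under IgG and 874 under anti-PD-1, and 858 and 742 of them lay above the median of the other autosomes. The highest window under IgG ran from Tusc1, which follows Elavl2 after the Ink4 locus, to Ror1, at 0.29 (0.36 under anti-PD-1). The highest under anti-PD-1 ran from Tceanc2 to Kti12 at 0.51 (0.26 under IgG). The lowest ran from Atad3a to Klhl17 near the distal end, at 0.01 and -0.03. Neighbouring members did not have like values: the difference under IgG correlated at r = 0.03 over 933 adjacent pairs, and between -0.03 and 0.03 at 2 to 20 genes apart.

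**Figure D3:**
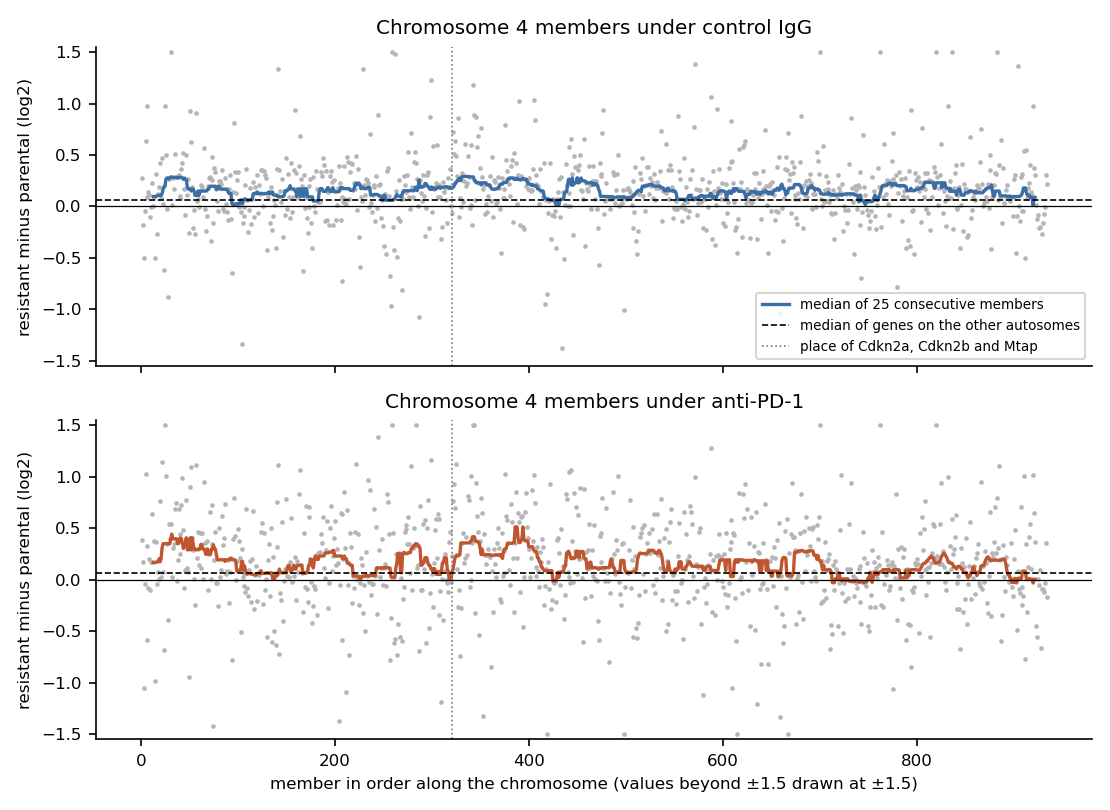
Resistant minus parental log2 difference of each placed member in its order along chromosome 4 (points), with the median of 25 consecutive members (line), the median of the other autosomes (dashed) and the place of the Ink4 locus (dotted), under IgG above and anti-PD-1 below. The running median stays above 0 in all 910 windows under IgG and in 874 under anti-PD-1.

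The Ink4 locus divides the chromosome into 320 members before it and 614 after it. Their medians were 0.15 and 0.16 under IgG, and 0.16 and 0.13 under anti-PD-1. No member lay among the 3 genes left out. The nearest members before them were Ifna4, Ifna5 and Ifna1, type I interferon genes whose sequences are close copies, so that their probe sets may share signal. Ifna1 differed by 0.01 under IgG and -0.02 under anti-PD-1 and Ifna5 by 0.19 and 0.37. Ifna4 differed by 0.36 and 0.47, but its parental levels lay below the limit of 3.32, so it passed only through other arrays. On the far side came Elavl2, a neuronal RNA-binding protein, at -0.06 and 0.23. Next was Tusc1, a gene named as a tumour suppressor candidate, at 6.28, 6.08 and 5.94 in parental and 6.75, 7.03 and 6.68 in resistant tumours under IgG. Under anti-PD-1 Tusc1 stood at 6.27, 6.26 and 6.16 against 6.83, 7.10 and 7.06. Tusc1 was thus higher in every resistant array, by 0.72 and 0.77 (SE 0.12). Caap1, an inhibitor of caspase activation, was also higher without overlap, by 0.51 and 0.93 (SE 0.15).

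The genes were also split into 4 classes of near-equal size by mean level. In the highest class, members had a median of 0.12 against 0.01 elsewhere under IgG and 0.21 against 0.10 under anti-PD-1. In the lowest class the medians were 0.17 against 0.12 and 0.09 against 0.07, a smaller gap. In the class below the highest they were 0.17 against 0.01 and 0.27 against 0.08. The member with the highest mean level in each of the 10 runs is an example chosen without regard to the lines. Of these 10, Rpl11, a protein of the large ribosomal subunit, differed most under anti-PD-1, by 0.32 under IgG and 0.61 under anti-PD-1, and Plin2, which coats lipid droplets, most under IgG, by 0.60 and 0.21. Summed adipocyte markers ran from 5.96 to 6.46 in parental and 7.27 to 10.98 in resistant tumours under IgG, without overlap, and from 6.32 to 8.03 and 6.13 to 7.53 under anti-PD-1. Their part in the values of Plin2 and of the lipid genes described below was not tested. Rps20, Akr1a1 and Pik3cd lay at or below 0.01 under both antibodies. Clta, Txn1, Ybx1, Rbbp4 and Rpl22 lay between 0.09 and 0.16 under IgG and between 0.07 and 0.39 under anti-PD-1. Another probe set of Ybx1 pointed the other way under anti-PD-1. The mean of all probe sets and the most variable probe set each changed the sign of Clta under both antibodies. Each also changed that of Rbbp4 under IgG and of Rps20, Akr1a1 and Ybx1 under anti-PD-1. The most variable probe set changed that of Rbbp4 under anti-PD-1 too.

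Counted gene by gene, 154 members (16.5%) were called higher in resistant tumours under IgG by limma at an adjusted p of 0.05, against 8.93% of all genes, and 25 (2.67%) lower, against 7.31%. The 179 calls under IgG became 110, 105 and 103 without parental IgG array 1, 2 or 3, 96 and 86 without resistant IgG array 1 or 2, and 371 with array weights. Under anti-PD-1 290 (31.0%) were called higher, against 21.6%, and 74 (7.91%) lower, against 11.9%. Arrays of the lines did not overlap, with the resistant line higher under both antibodies, in 221 members (23.6%), against 13.1% of all genes, and lower in 39 (4.17%), against 8.21%. A difference of at least 2-fold was rare: 17 members (1.82%) were higher and 5 (0.534%) lower under IgG, against 1.72% and 1.61% of all genes. Under anti-PD-1 there were 32 (3.42%) higher and 15 (1.6%) lower, against 2.03% and 3.4%. Under anti-PD-1, whether or not they overlapped under IgG, arrays of the lines were apart in 365 members with the resistant line higher (39.0%), against 29.9%. With it lower they were apart in 99 (10.6%), against 15.8%. Under IgG, whether or not they overlapped under anti-PD-1, these were 342 (36.5%), against 23.6%, and 74 (7.91%), against 15.2%. All these counts use the values that chose the chromosome, and nothing is read from them.

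The members that stood apart most on both sides of the antibody were led by Ambp, which encodes the precursor of alpha-1-microglobulin and bikunin, plasma proteins made in liver. Its level was 5.56, 5.49 and 5.39 in parental tumours under IgG and 8.18, 8.17 and 7.97 in resistant tumours. With anti-PD-1 its level was 5.21, 4.89 and 4.35 against 8.43, 8.09 and 8.92. Every resistant array lay above every parental array, and the difference was 2.63 under IgG and 3.66 under anti-PD-1 (SE 0.22). Id3, an inhibitor of basic helix-loop-helix transcription factors, had levels of 6.29, 6.27 and 6.37 in parental and 8.58, 8.63 and 8.33 in resistant tumours under IgG. Under anti-PD-1 it had 6.59, 6.47 and 7.53 against 8.61, 8.21 and 8.27, with parental array 3 higher than the other parental arrays and still below all resistant ones. Its differences were 2.20 and 1.5 (SE 0.23).

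Fbxo2 and Padi1 had parental levels near the limit for dim genes. Fbxo2, a ubiquitin ligase subunit that binds glycoproteins, had parental arrays between 3.18 and 4.06 and resistant arrays between 4.78 and 5.65, with differences of 1.63 and 1.62 (SE 0.24). Padi1, which converts arginine to citrulline in proteins of the skin, had parental arrays between 3.5 and 3.90 and resistant arrays between 4.62 and 5.88, with 1.75 and 1.53 (SE 0.22). Gjb5, a connexin of epithelial gap junctions, was 1.38 higher under IgG and 1.00 higher under anti-PD-1 (SE 0.16), and Zbtb8a, a zinc finger protein, 1.06 and 1.28 (SE 0.24). Summed keratinocyte markers ran from 7.21 to 7.81 in parental and 8.12 to 8.71 in resistant tumours under IgG, without overlap, and from 7.15 to 8.61 and 8.25 to 8.46 under anti-PD-1, and their part in the values of Padi1 and Gjb5 was not tested. Cntln, a centrosomal linker protein, was 1.23 and 1.16 higher (SE 0.14).

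Car9, a cell-surface carbonic anhydrase induced under low oxygen, stood at 8.42, 7.62 and 7.94 in parental and 9.50, 9.14 and 9.34 in resistant tumours under IgG. Under anti-PD-1 its levels were 7.73, 8.52 and 7.75 against 9.27, 8.72 and 9.36. The lines came closest there without overlapping, and the differences were 1.33 and 1.12 (SE 0.26). Cdkn2c, the p18 inhibitor of CDK4 and CDK6, was 7.51, 7.85 and 7.73 in parental and 8.79, 8.87 and 8.52 in resistant tumours under IgG. With anti-PD-1 it was 7.74, 7.90 and 7.86 against 8.81, 8.87 and 8.87. It was thus higher in the resistant line by 1.03 and 1.02 (SE 0.11), while its relatives Cdkn2a and Cdkn2b on the same chromosome were lower there.

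**Figure D4:**
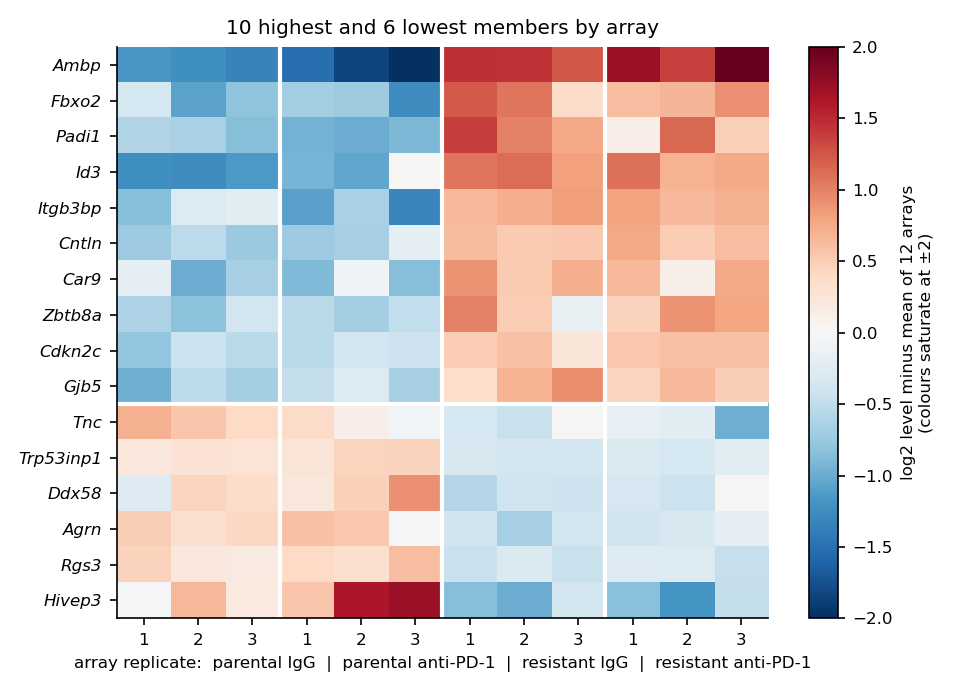
Log2 level minus the mean over 12 arrays, for the 10 highest and 6 lowest members by the rule of non-overlapping arrays under both antibodies, one column per array in 4 groups of 3. Ambp is the widest row, with parental arrays between 4.35 and 5.56 and resistant arrays between 7.97 and 8.92 before the mean was taken off.

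Of the members lower in the resistant line, Trp53inp1, a target of p53 that takes part in autophagy, had the tightest groups of the 6 named. Its levels were 9.24, 9.30 and 9.28 in parental and 8.69, 8.65 and 8.63 in resistant tumours under IgG. Under anti-PD-1 they were 9.27, 9.46 and 9.47 against 8.72, 8.66 and 8.78. The differences were -0.62 and -0.68 (SE 0.08), with no overlap. Agrn, the basement membrane proteoglycan agrin, had -0.89 and -0.67 (SE 0.15), and Tnc, the matrix protein tenascin-C, -0.82 and -0.60 (SE 0.21). Ddx58, the RNA sensor RIG-I that induces interferon, had -0.65 and -0.78 (SE 0.21). Hivep3, a zinc finger protein, had -1.01 and -2.12 (SE 0.31), and Rgs3, which shortens G protein signals, -0.68 and -0.78 (SE 0.11). Further probe sets pointed the other way under IgG for 3 of 4 of Hivep3, 2 of 3 of Rgs3 and 1 of 2 of Ddx58, and under anti-PD-1 for the other probe set of Agrn.

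Genes of cell division had the largest median under anti-PD-1 among the 14 role lists. All 30 listed genes were measured. Their median difference was 0.35 under IgG and 0.60 under anti-PD-1, against 0.07 for all genes under each, with 29 and 28 members above 0. Under IgG 8 were called higher and 0 lower, against 8.93% and 7.31% of all genes, and under anti-PD-1 20 higher and 1 lower, against 21.6% and 11.9%. In 17 of 30 the resistant arrays lay above the parental arrays under both antibodies, against 23.6% of all members and 13.1% of all genes. The lists were written with earlier results of these arrays known, and their counts are no independent evidence of direction.

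Ccne2, cyclin E2, which drives entry into DNA replication, was at 6.43, 7.09 and 6.64 in parental and 7.65, 7.71 and 7.73 in resistant tumours under IgG. Under anti-PD-1 it was at 6.10, 6.62 and 5.5 against 7.88, 7.81 and 7.44. The lines did not overlap, and the differences were 0.98 and 1.64 (SE 0.25). Itgb3bp, the kinetochore protein CENP-R, was at 5.65, 6.24 and 6.30 against 7.16, 7.23 and 7.34 under IgG, and at 5.43, 5.86 and 5.21 against 7.31, 7.15 and 7.22 under anti-PD-1. Its differences were 1.18 and 1.73 (SE 0.18). In both genes the third parental anti-PD-1 array was the lowest of the 12, and the resistant arrays of both antibodies lay close together.

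Others of the list had roles from origin firing to the spindle. Nasp, a histone chaperone, was 0.57 and 1.04 higher under IgG and anti-PD-1, although 2 of its 4 further probe sets pointed the other way under IgG and 3 under anti-PD-1. Melk, a mitotic kinase, was 0.68 and 1.07 higher, Cdca8, the borealin subunit of the chromosomal passenger complex, 0.74 and 0.78, and Kif2c, a microtubule-depolymerising kinesin, 0.66 and 0.88. Orc1 and Clspn, whose start regions are printed above, differed by 0.28 and 0.62 and by 0.47 and 0.66. E2f2, which carries the same letters, differed by 0.07 and -0.22, so members with a match did not all lie on one side. Plk3, a stress-induced kinase, lay at 0.07 and -0.61, and Rcc2, a regulator of mitosis, at -0.22 and 0.11.

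Neighbours read outwards from one start region gave a further look at shared sequence. In 38 pairs of members with overlapping windows on opposite strands, both were higher on average over the antibodies in 28 and both lower in 1. In 9 pairs they differed in sign or a mean was 0. Of all members 74.5% lay above 0 under IgG and 67.1% under anti-PD-1, so many pairs would both be higher without a shared start region. The count was not set against pairs of other members. Across these pairs Pearson's r was 0.21 and Spearman's rho 0.29, as a description. Prpf38a and Orc1 had near-equal differences, 0.29 and 0.61 for the first and 0.28 and 0.62 for the second. Lrrc42 and Hspb11, whose windows overlap by 258 bases, did not: 0.08 and 0.28 for Lrrc42 against 0.79 and 1.03 for Hspb11. This last pair was chosen after its values were seen.

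Genes for making proteins had shares above 0 near those of the members as a whole, and genes for mitochondria had larger ones. In the ribosome and translation list 11 of 12 genes were members, with medians of 0.16 and 0.24, and 8 and 7 of them lay above 0, against 74.5% and 67.1% of all members. Of these, 3 were called higher under IgG and 5 under anti-PD-1, against 8.93% and 21.6% of all genes. In each 0 were called lower, against 7.31% and 11.9% of all genes. Rpl11 was at 12.43, 12.51 and 12.54 in parental and 12.87, 12.81 and 12.76 in resistant tumours under IgG, and at 12.21, 12.31 and 12.17 against 12.80, 12.85 and 12.88 under anti-PD-1. The lines did not overlap in it. Eif2b3, a subunit of the exchange factor for eIF2, was 0.50 and 0.89 higher, and Pabpc4, a poly(A)-binding protein, 0.47 and 0.50. Ago1, Ago3 and Ago4, the Argonaute proteins of microRNA silencing on this chromosome, lay between -0.14 and 0.02 under IgG and between -0.57 and 0.0 under anti-PD-1.

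For splicing and RNA processing 18 of 20 genes were members, with medians of 0.18 and 0.42. Under IgG 2 were called higher and 0 lower, against 8.93% and 7.31% of all genes. Under anti-PD-1 10 were called higher and 1 lower, against 21.6% and 11.9%, the lower one being Srrm1, a splicing coactivator, at -0.38. Lsm10, a part of the U7 particle that processes histone messages, was 0.35 and 0.69 higher (SE 0.10). Sfpq, a splicing and paraspeckle protein, was 0.26 and 0.71 higher by its brightest probe set, with 3 of 5 others pointing the other way under IgG and 2 under anti-PD-1.

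For mitochondria 21 of 24 genes were members, with medians of 0.19 and 0.42, and 20 and 19 of them lay above 0. Under IgG 5 were called higher and under anti-PD-1 14, against 8.93% and 21.6% of all genes, with 0 lower in each, against 7.31% and 11.9%. Mrpl20, a protein of the mitochondrial ribosome, was at 8.62, 8.84 and 8.71 in parental and 9.28, 9.34 and 9.18 in resistant tumours under IgG. Under anti-PD-1 it was at 8.33, 8.44 and 8.09 against 9.33, 9.27 and 9.27. The resistant arrays stood above all parental ones, by 0.54 and 1.00 (SE 0.10). Mecr, an enzyme of mitochondrial fatty acid synthesis, was 0.56 and 0.84 higher, with 1 of its 2 further probe sets pointing the other way. Sdhb, a subunit of respiratory complex II, lay at 0.20 and 0.46, and Mfn2, which fuses mitochondria, at -0.03 and -0.15.

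Metabolic genes were less uniform. In the lipid list 17 of 20 genes were members, with a median of 0.19 under IgG and -0.03 under anti-PD-1. Acot7, an acyl-CoA thioesterase, was higher in all resistant arrays, by 0.75 and 0.95 (SE 0.14). Cyp4b1, a cytochrome P450 of the lung, was 5.45, 6.99 and 6.64 in parental against 5.11, 5.59 and 5.83 in resistant tumours under IgG, where the lines overlapped. Anti-PD-1 arrays stood at 6.53, 8.33 and 8.17 against 5.26, 4.75 and 5.86, with no overlap, and the differences were -0.85 and -2.39 (SE 0.51). Fabp3, the heart and muscle fatty acid binding protein and the one member of its family here, was 4.14, 6.70 and 5.4 against 5.93, 5.75 and 5.88 under IgG. With anti-PD-1 it was 5.43, 5.70 and 7.43 against 4.56, 5.48 and 5.37. The lines overlapped under both, and the differences were 0.44 and -1.05 (SE 0.61), the first turning to -0.20 without parental IgG array 1. In the glucose and redox list, 11 of 16 genes were members with medians of 0.09 and -0.04. Gpx7, a peroxidase of the endoplasmic reticulum, was 1.03 and 0.56 higher, and H6pd, which makes NADPH there, had -0.40 and -0.67.

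Regulators had members on either side of 0. Of the transcription factor and chromatin list all 21 genes were members, with medians of 0.17 and 0.09, 2 called higher and 1 lower under IgG (8.93% and 7.31% of all genes), and 4 higher and 5 lower under anti-PD-1 (21.6% and 11.9%). Runx3, a Runt-domain factor, was 0.88 and 0.84 higher. In the kinase and signalling list 20 of 24 genes were members, with medians of 0.11 and 0.14. Ror1, a receptor for Wnt5a, was at 6.32, 6.42 and 6.33 in parental and 7.25, 7.22 and 7.20 in resistant tumours under IgG, and at 6.63, 6.48 and 6.21 against 7.28, 7.45 and 7.42 under anti-PD-1. It was thus higher without overlap, by 0.87 and 0.94 (SE 0.10). Gng10, a gamma subunit of G proteins, was 0.70 and 0.87 higher. For protein folding and turnover all 20 genes were members, with medians of 0.09 and 0.05. Sec61b, a subunit of the translocon of the endoplasmic reticulum, was 0.34 and 0.72 higher.

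Members of immune cells lay lower in the resistant line under anti-PD-1. Of 31 listed genes 23 were members, with a median of 0.07 under IgG and -0.44 under anti-PD-1. Under IgG 0 were called in either direction, against 8.93% higher and 7.31% lower of all genes. Under anti-PD-1 2 were called higher and 8 lower, against 21.6% and 11.9% of all genes. Laptm5, a lysosomal protein of blood cells, was 8.51, 9.26 and 9.26 in parental and 8.43, 8.49 and 8.76 in resistant tumours under IgG, with overlap. With anti-PD-1 its level was 9.56, 10.07 and 10.39 against 8.18, 8.04 and 8.65, with none, and the differences were -0.45 and -1.72 (SE 0.25), with 1 of its 3 further probe sets pointing the other way under each. Cd52, a surface glycoprotein of lymphocytes, had -1.03 and -1.34 (SE 0.46), and the lines overlapped under both antibodies. Of the receptor block, Tnfrsf9 (4-1BB) had -0.30 and -0.43, Tnfrsf4 (OX40) 0.01 and -0.45, and Tnfrsf8 (CD30) 0.23 and 0.45. The complement genes C1qa, C1qb and C1qc lay between -0.08 and 0.11 under IgG and between -0.67 and -0.44 under anti-PD-1, none of them called. Summed T cell markers, none on chromosome 4, ran from 7.49 to 8.52 in parental and 7.10 to 7.41 in resistant tumours under anti-PD-1, and macrophage markers from 10.67 to 11.75 and 10.68 to 10.76. The part of these cells in the members' differences was not tested.

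Matrix and vessel genes had a median above 0 under IgG and below 0 under anti-PD-1. Of 25 listed genes 24 were members, with a median of 0.38 under IgG and -0.21 under anti-PD-1. Under IgG 7 were called higher and 2 lower, against 8.93% and 7.31% of all genes. Under anti-PD-1 3 were called higher and 6 lower, against 21.6% and 11.9%. Svep1, an adhesion protein of vessels and lymphatics, was 5.32, 5.5 and 6.26 in parental and 6.64, 7.30 and 7.16 in resistant tumours under IgG, without overlap. Anti-PD-1 arrays stood at 6.06, 6.63 and 7.84 against 6.57, 6.61 and 6.37, with overlap, and the differences were 1.34 and -0.33 (SE 0.39). The endothelial receptors Tie1 and Tek had 0.93 and 0.86 under IgG, and 0.12 and -0.27 under anti-PD-1. Summed endothelial markers ran from 7.31 to 7.82 in parental and 8.37 to 9.13 in resistant tumours under IgG, and from 7.92 to 9.19 and 7.94 to 8.42 under anti-PD-1. Fibroblast markers ran from 12.91 to 13.39 and 13.60 to 14.12 under IgG, and from 13.08 to 14.42 and 13.07 to 13.72 under anti-PD-1. Their part in the result was not tested.

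In the skeletal muscle list 9 of 10 genes were members, with medians of 0.23 and -0.05. Trim63, a ubiquitin ligase of wasting muscle, ran from 4.15 to 6.93 among the parental arrays under IgG, and its differences were 0.71 and -1.87 (SE 0.82) with overlap under both, the first turning to -0.09 without parental IgG array 1. Tpm2, a tropomyosin, had 0.35 and -0.72, also with overlap, and 1 of its 3 further probe sets pointed the other way under IgG. Summed muscle markers varied as widely within groups, as given above, and their part was not tested. Of 17 plasma protein and liver genes 7 were members, with medians of 0.37 and 0.22. Alad, an enzyme of haem synthesis, was 0.37 and 0.76 higher, and its other probe set pointed the other way under IgG. In the epithelial junction and skin list 9 of 12 genes were members, with medians of -0.13 and 0.09. Tspan1, a tetraspanin of epithelia, was 6.19, 6.21 and 5.34 in parental and 4.63, 4.58 and 4.41 in resistant tumours under IgG. Under anti-PD-1 it was 4.59, 4.85 and 4.70 against 4.85, 4.99 and 4.56, so its difference of -1.37 under IgG was 0.09 under anti-PD-1 (SE 0.21).

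**Figure D5:**
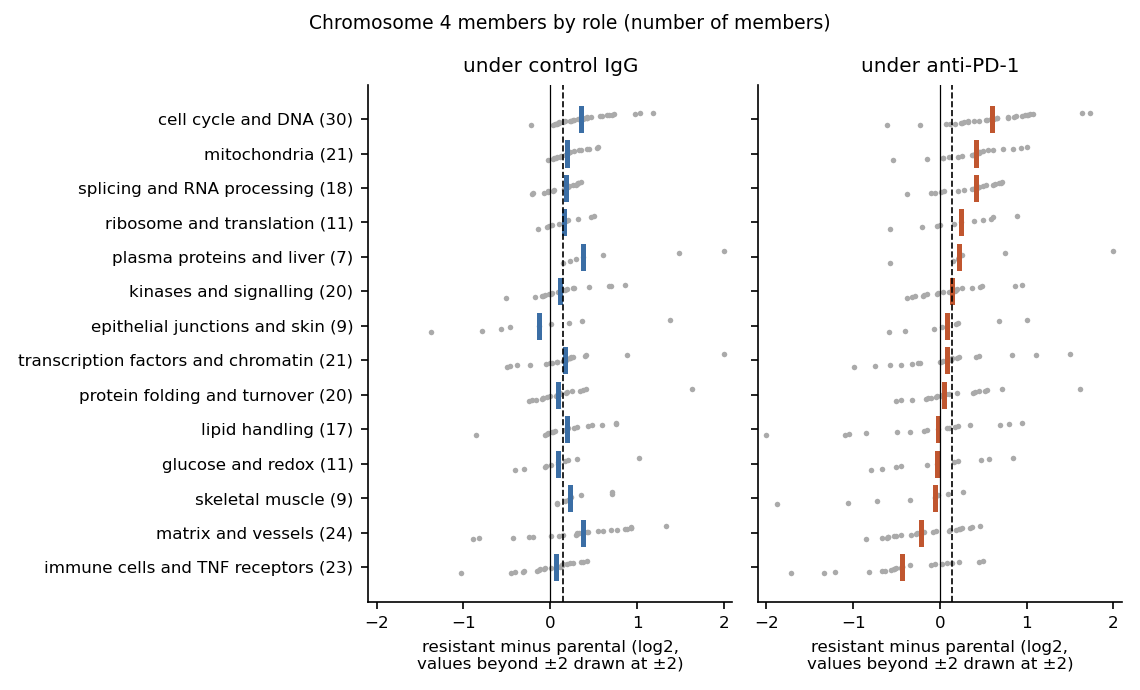
Resistant minus parental log2 difference of each listed member (points) with the list median (bar), under IgG on the left and anti-PD-1 on the right, with the median of all 936 members dashed. Cell cycle genes have a median of 0.35 and 0.60, and immune genes 0.07 and -0.44.

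The effect of anti-PD-1 within a line was not used to choose the chromosome and was tested by limma with adjustment over all 15493 genes. In parental tumours 14 members rose (1.5%, against 1.23% of all genes) and 20 fell (2.14%, against 2.27%), shares near those of all genes. An unadjusted p under 0.05 was reached by 206 (22.0%), against 21.9%. The median change over the 936 members was -0.003, against -0.007 on the other autosomes. Whether a member was called depended on single arrays. The changes of Plk3, Gem, Dvl1, Mrpl50, Ptgr1, Cibar1 and Tspan1, given below, kept their direction whichever array was left out. All 7 were called members, so a kept direction adds little. Leaving out a resistant array cannot alter the size of a change in parental tumours. Without the parental IgG array 2 none of the 34 was called (smallest adjusted p = 0.0572 by limma, 174 at an unadjusted p under 0.05), without parental IgG array 3 only Tspan1, and without parental anti-PD-1 array 3 only Mrpl50 and Ptgr1. Without parental IgG array 1, 9 members were called. Without resistant IgG array 1 there were 13, and without resistant anti-PD-1 array 1, 2 or 3 there were 16, 14 and 12.

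Of those that rose, Plk3 went from 6.04, 6.09 and 5.86 under IgG to 6.59, 6.97 and 6.76 under anti-PD-1, a change of 0.78 (SE 0.12, limma adjusted p = 0.0214). Gem, a small GTPase induced by mitogens, went from 5.01, 4.71 and 4.72 to 5.5, 6.43 and 6.41, a change of 1.30 (SE 0.23, limma adjusted p = 0.0249). Dvl1, a relay of Wnt signals, went from 9.57, 9.74 and 9.67 to 10.25, 10.15 and 10.19, a change of 0.54 (SE 0.10, limma adjusted p = 0.0254). Leaving out 1 array at a time, the changes ran from 0.68 to 0.87 for Plk3, 1.14 to 1.61 for Gem and 0.49 to 0.58 for Dvl1. In all 3 the anti-PD-1 arrays lay above the IgG arrays, and each call was lost without parental IgG array 2, parental IgG array 3 or parental anti-PD-1 array 3, for Dvl1 also without parental IgG array 1.

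Of those that fell, Mrpl50, a protein of the mitochondrial ribosome, went from 8.54, 8.77 and 8.79 to 8.05, 7.82 and 7.91, a change of -0.77 (SE 0.11, limma adjusted p = 0.0122). Ptgr1, a reductase of prostaglandins and leukotrienes, went from 8.88, 8.83 and 8.77 to 8.21, 8.26 and 8.0, a change of -0.67 (SE 0.10, limma adjusted p = 0.0191). Cibar1, a protein of the ciliary base, fell by 0.51 (SE 0.09, limma adjusted p = 0.0220). Tspan1 fell by 1.2 (SE 0.21, limma adjusted p = 0.0227). Leaving out 1 array at a time, the changes ran from -0.85 to -0.72 for Mrpl50, -0.72 to -0.59 for Ptgr1, -0.55 to -0.44 for Cibar1 and -1.49 to -1.05 for Tspan1. Without parental IgG array 2 all 4 lost their call, and without parental IgG array 3 all but Tspan1 did. Without parental anti-PD-1 array 3 Cibar1 and Tspan1 lost it, and without parental IgG array 1 Tspan1 did. In the mitochondrial list, written with earlier results known, 4 of 21 members fell and 0 rose, against 2.27% and 1.23% of all genes. Those that fell were Atpif1, an inhibitor of ATP synthase, by 0.57, Atpaf1, which assembles it, by 0.54, Mrpl20 by 0.44 and Stoml2, a cardiolipin-binding protein, by 0.33. These 4 were named after their values were seen.

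In resistant tumours limma called 0 members in either direction, and likewise 0 of all 15493 genes. The smallest limma adjusted p among members was 0.896, and 40 had an unadjusted p under 0.05 (4.27%, against 4.76% of all genes). The smallest p-values belonged to Guca2a, the gut peptide guanylin, at 0.35, Rap1gapos, an antisense transcript whose signal may include its sense partner, at 0.52, and Aqp3, a water and glycerol channel, at 0.32. In the other direction they belonged to Rbp7, a retinol-binding protein of fat and vessels, at -0.86, the clone 4930423M02Rik at -0.32 and Gpr153, an orphan receptor, at -0.29. None of these passed the test. Rbp7 stood at 5.91, 6.17 and 6.46 under IgG and 5.09, 5.65 and 5.21 under anti-PD-1, without overlap. The adipocyte markers ran from 7.27 to 10.98 and 6.13 to 7.53 in the same groups, with overlap, and their part in the values of Rbp7 was not tested.

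The interaction, the change with anti-PD-1 in resistant minus that in parental tumours, also had 0 members called by limma. Of all 15493 genes 0 were called in it either. An unadjusted p under 0.05 was reached by 165 (17.6%, against 17.5% of all genes), and the smallest adjusted p was 0.116. It belonged to Mrpl50 with an interaction of 0.78, Ptgr1 with 0.74 and Tspan1 with 1.46. In the other direction Hspb7, a small heat shock protein of muscle, had -1.77, Zc3h12a, the RNase Regnase-1 that limits inflammation, -0.63, and Gja4, a connexin of vessels, -0.95, with limma adjusted p = 0.132, 0.132 and 0.142. So a different response of these members in the lines was not shown at 3 arrays per group, where the median SE of an interaction was 0.166.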

How the data were processed

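RNA from the tumours was hybridised to Affymetrix Mouse Genome 430 2.0 arrays, per the labels' protocols, with 12 arrays in all. The authors deposited log2 values, 1 per probe set and array, from 1.62 to 13.88. How they were corrected, normalized and summarized is not stated in the labels or headers, and the near-equal array quartiles are a property of the values. Of 45101 probe sets, 64 controls were set aside and the 34945 with 1 gene in the platform annotation were used. A mouse gene table of GRCm38.p6 gave current symbols (34741 found), chromosomes and gene order. Of 18193 genes named, 15493 passed the limit for dim genes, and 513 members had several probe sets. Among the 434 with another bright one, it pointed the other way between the lines in 161 under IgG and 179 under anti-PD-1.

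The fit used limma 3.58.1 (R 4.3.3) with a mean for each group on all 12 arrays, which gave 8 residual degrees of freedom beside 2.98 prior ones, and Benjamini-Hochberg adjustment over all genes within each of 5 contrasts. The p-values are two-sided, and the median SE of a difference was 0.117. The code was tested on simulated data. Columns left unused numbered 0, and 0 pairs of arrays were identical. Plots came from Python 3.11.15 with matplotlib 3.10.9.

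Members, lists and tests were chosen with earlier results of these data known. The named genes are, first, the 10 highest and 6 lowest members whose arrays did not overlap between the lines under either antibody, ranked on the smaller difference and without predicted genes. To these come the 2 members of each of 14 role lists (282 genes, 241 of them members) with the largest mean difference, and Fabp3. The 3 smallest p-values in each direction of each anti-PD-1 contrast, 3 members on each side of the Ink4 locus, and the member with the highest level in each of the 10 runs complete the rule. Further list members named in the text were chosen after their values were seen. Alternatives were another choice of probe set, filter, centring, array weights, a trended prior, a replicate term, and leaving out arrays or host lists.

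Same-numbered arrays of different groups had deviations with correlations between -0.21 and 0.64, with 14 of 18 pairs over 0.1. Of 12 arrays, 8 correlated best with an array of their own number. What same-numbered arrays share was not tested, and the main fit had no term for it. With a replicate term 47 members were called for anti-PD-1 in parental tumours, against 34 in the main fit.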

Additional observations from a re-analysis of the deposited data

Results flagged for a closer look

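In 6 of 936 members (0.641%) every resistant array lay on one side of the parental arrays under IgG and on the other side under anti-PD-1. The share over all genes was 0.82%, so this count is not particular to the members. The test of such a change of side is the limma interaction, and none of the 6 passed it. Hspb7, a small heat shock protein of muscle, went from 0.71 under IgG to -1.06 under anti-PD-1, an interaction of -1.77 (adjusted p = 0.132). Frem1, an extracellular matrix protein near the limit for dim genes, went from -0.29 to 0.58, an interaction of 0.87 (adjusted p = 0.132). Zc3h12a, an RNase that limits inflammation, went from 0.13 to -0.50, an interaction of -0.63 (adjusted p = 0.132). Aldh1b1, a mitochondrial aldehyde dehydrogenase, went from 0.29 to -0.25, an interaction of -0.54 (adjusted p = 0.143). Tgs1, which caps small nuclear RNAs, had an interaction of 0.35 (adjusted p = 0.180), and Ptpru, a receptor phosphatase, one of 0.32 (adjusted p = 0.246). Summed muscle markers ran from 10.38 to 14.44, 13.33 to 15.04, 13.28 to 13.97 and 9.84 to 13.08 in the parental IgG, parental anti-PD-1, resistant IgG and resistant anti-PD-1 arrays, and their part in the values of Hspb7 was not tested.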

How the results depend on the processing

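The median of each of the 10 runs stayed above 0 under both antibodies (20 of 20) in every alternative run. This does not measure an excess, because the other autosomes had main-fit medians of 0.06 under IgG and 0.067 under anti-PD-1. In that fit the eighth and the last run lay below the other autosomes under anti-PD-1, at 0.057 and 0.04. Leaving out 1 array at a time, the members' median difference ran from 0.138 to 0.164 under IgG and 0.137 to 0.15 under anti-PD-1, and the excess over other autosomes from 0.081 to 0.096 and 0.064 to 0.083. Line calls ran from 86 to 249 under IgG (main 179; 86, 96, 103, 105 and 110 without resistant IgG 2, resistant IgG 1 and parental IgG 3, 2 and 1) and 284 to 366 under anti-PD-1 (main 364). Calls for anti-PD-1 ran from 0 to 42 in parental tumours, with 0 in resistant tumours throughout, and from 0 to 2 in the interaction (Tspan1 without parental IgG 3; Gem and Tmem38b without parental anti-PD-1 1). With the mean of all probe sets the medians were 0.129 and 0.119, the excesses 0.069 and 0.056, and parental anti-PD-1 calls 22. Without the filter the excesses were 0.077 and 0.052 and the anti-PD-1 median 0.118. At the 50th percentile the excesses were 0.12 and 0.12 and that median 0.187. Centring arrays, or the most variable probe set, gave 0.16 for it. Array weights gave an IgG excess of 0.089, 371 IgG calls and 5 in the interaction (Aldh1b1, Gem, Mrpl50, Ptgr1 and Rap1gapos, named after their values were seen). Without parental IgG 1 and parental anti-PD-1 3 together the IgG excess was 0.085 and 5 members were called in parental tumours (Atpif1, Btf3l4, Mrpl50, Mycbp and Nudt2, all lower under anti-PD-1). Without the host tissue lists, 873 members had an anti-PD-1 median of 0.157 and excess of 0.09. A replicate block gave 191, 381, 47, 0 and 0 calls in the 5 contrasts, and 8 of 12 arrays correlated best with their own number. Of 156 values of named genes, 134 kept their sign in all alternatives and 10 changed it without 1 array, among them Trim63 (-0.09) and Fabp3 (-0.20) under IgG without parental IgG 1 and Gja4 (0.03) under anti-PD-1 without parental anti-PD-1 3. Of values called at first, 4 changed sign. The mean of probe sets turned Cibar1 under IgG (-0.115) and Ybx1 under anti-PD-1 (-0.002), and the most variable probe set turned Sfpq (-0.767) and Ybx1 (-0.147) under anti-PD-1 and Cibar1 under both (-0.513 and -0.037). The cause of these changes was not tested. Parental levels near the limit of 3.32 leave the size of Fbxo2 and Padi1 differences least certain.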
